A study of Mus musculus with 6 samples.

Results

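The genes described here are 40 genes of glycolysis and of the response to low oxygen. They were chosen by name as glycolytic enzymes, glucose and lactate carriers, known targets of hypoxia-inducible factor (HIF) and the HIF subunit genes *Hif1a* and *Epas1*. They are 40 of the 18460 genes listed for at least 1 of 6 mouse breast tumors. By role, 23 of the genes are glycolytic and 17 belong to the HIF response. The roles overlap, since glycolytic members such as *Slc16a3* are HIF targets too. The HIF response also holds the subunit genes *Hif1a* and *Epas1*. All 40 were listed in the data and all 40 passed the filter on low counts.

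RNA sequencing was available for 3 breast tumors of K14-TSLPtg;PyMTtg;Rag1KO mice (test) and 3 of PyMTtg;Rag1KO mice (control), all given CD4+ T cells. In both groups the MMTV promoter drove the polyoma middle T oncogene in mammary epithelium, *Rag1* was deleted so that the hosts made no T or B cells of their own, and naive CD4+ T cells sorted from donor spleens were given at 4 wk of age. The test mice also carried the K14-TSLPtg transgene, in which the keratin 14 promoter, active in keratinocytes and in basal cells of other epithelia, drives thymic stromal lymphopoietin (TSLP). All mice were female and of the Balb/c strain, tumors were taken at 18 to 20 wk of age, and the comparison asks how tumors differ when the transferred T cells meet an excess of TSLP. The p-values below measure the spread between these tumors. Expected counts, the authors' estimates of the reads from each gene, summed to between 8373390 and 9449565 per tumor. Levels are given as CPM, counts scaled to a library of fixed size with edgeR's TMM factors, for comparisons between tumors, and as FPKM, which is also per length, for comparisons between genes.

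The tumor label was checked against markers. The epithelial marker *Epcam* was at 281 to 797 CPM in the 6 tumors, and *Krt18* was on average the most abundant of the 8 epithelial markers. T cell markers were low, beside a floor of 3 counts, which is between 0.317 and 0.358 when written as CPM without TMM factors. *Cd4* was at 1.04 to 3.73 CPM and *Cd3e* at 0.108 to 0.746 CPM. *Cd8a* was at 0.116, 0.433 and 0.426 CPM in the control and 1.499, 0.488 and 1.27 CPM in the test replicates, so its groups did not overlap. It did not pass the filter on low counts and was not tested. The log2 fold change was -0.75 for *Cd4* and 0.24 for *Cd3d*, the T cell markers that were tested. Counts of *Tslp* were 2, 2 and 3 for the control tumors and 12, 7 and 2 for the test tumors, by replicate number, so *Tslp* RNA in test replicate 3 was not detectable above the control level at this depth. *Rag1* had 27, 4 and 10 counts in the control and 6, 12 and 9 counts in the test replicates, and gene counts do not tell an intact from a deleted allele. The floor covers counting error only.

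Glycolysis splits glucose into pyruvate, and cells that lack oxygen or that grow fast turn much of that pyruvate into lactate and export it. HIF is a pair of proteins, an alpha subunit that prolyl hydroxylases mark for destruction when oxygen is present and a stable beta subunit, so that its activity is set mostly at the protein level and is read in RNA through its targets. In breast tumors these targets are known for rising in poorly perfused regions, where they cover glucose uptake, lactate export, acid balance, blood vessel growth, collagen modification and the turnover of mitochondria.

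Most members were lower in test tumors on average, and none was called. The log2 fold change was below 0 for 32 of the 40 members, against 48.5% of the 13706 genes tested, and the median was -0.28, against 0.02 for all tested genes. By the quasi-likelihood test of edgeR and p adjusted after Benjamini and Hochberg, 0 of 40 members and 0 of 13706 genes (0%) had an adjusted p of 0.05 or less. At an unadjusted p under 0.05 there was 1 member, *P4ha2*, lower in test tumors, against 8.41% of all tested genes in either direction and 5.26% in the lower direction. DESeq2 called 313 of 13706 genes and limma-trend on log2(FPKM + 1) called 1 of 12890 genes, and neither called a member. DESeq2 gave 3 members (7.5%) an unadjusted p under 0.05, *Eno2*, *P4ha1* and *P4ha2*, against 10.1% of all tested genes. The groups did not overlap for 1 member, *Pfkfb3*, lower in test tumors, against 12% of all tested genes in either direction and 5.86% in the lower direction. Both counts are below the share among all genes. The adjusted p of the members ran from 0.533 for *P4ha2* to 1.00 for *Ldhb*.

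The counts are also given by role, with no test between the roles. Of the 17 members of the HIF response 16 were lower in test tumors, with a median log2 fold change of -0.52, and the exception was *Car12*. The HIF response median was -0.31 and -0.33 with limma-trend on log2 FPKM (pseudocounts of 1 and 0.1), with 15 of 17 lower in each. Of the 23 glycolytic members 16 were lower, with a median of -0.18. The members' median log2 CPM from the gene means also varied between tumors of a group. The SD within groups was 0.67 for the HIF response, 0.48 for glycolytic members and 0.50 for all members. Each SD was larger than the size of the median log2 fold change of the same genes. With upper-quartile scaling in place of TMM, 15 of 17 and 14 of 23 were lower. In bulk tumors, fewer cells of a type and less RNA per cell cannot be told apart, and this holds for every value below.

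**Figure D1:**
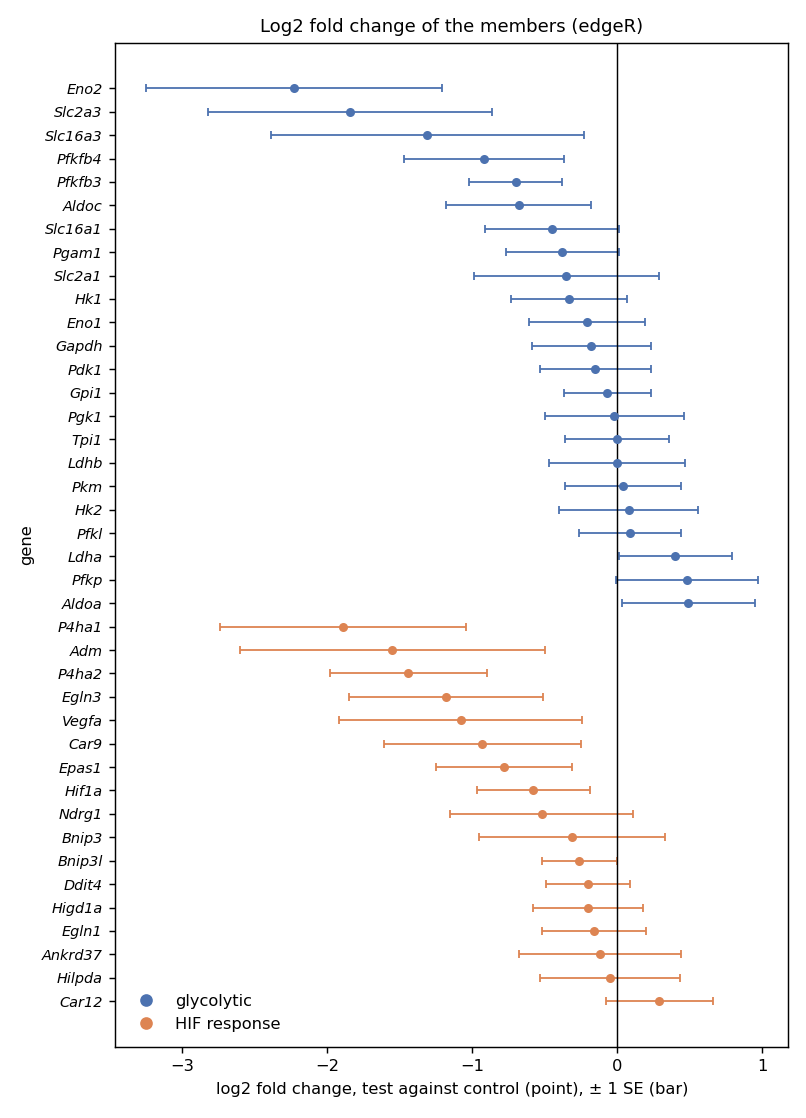
Log2 fold change of each of the 40 members (horizontal axis, test against control), with 1 standard error derived from edgeR's test as the bar, glycolytic genes in blue and HIF response genes in orange. The values run from -2.23 for *Eno2* to 0.49 for *Aldoa*, and 16 of the 17 HIF response genes lie below 0.

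The same tumors were high or low for many members. Control replicate 1 had the highest CPM of the 6 tumors for 26 of the 40 members (65%), against 21.2% of all tested genes. Within the control group it was the highest for all 17 members of the HIF response and for 20 of the 23 glycolytic members, against 34.5% of all tested genes. Control replicate 2 was the lowest control tumor for 13 of the 17 members of the HIF response and control replicate 3 for the other 4. Within the test group, replicate 3 was the highest tumor for 13 of the 17 members of the HIF response and for 14 of the 23 glycolytic members, against 27.2% of all tested genes. Test replicate 1 was the lowest of the 6 tumors for 13 of the 23 glycolytic members, against 17.7% of all tested genes, and test replicate 2 was the lowest for 9 of the 17 members of the HIF response, against 25.4%. Members are not independent of each other, and these counts describe 6 tumors.

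Test replicate 2 also stood apart in its levels by gene length. Among 4 classes of all tested genes by length, the shortest lay at 0.51 and the longest at -0.42 from the gene means on the log2 scale in that tumor. In control replicate 1 the trend was smaller and ran the other way, from -0.23 for the shortest class to 0.21 for the longest. After each tumor's trend with gene length was removed, an alternative chosen after seeing the data, test replicate 2 was the lowest tumor for 6 of the 17 members of the HIF response in place of 9, against 21.8% of all tested genes. Control replicate 1 was then the highest tumor for 15 of the 17 and test replicate 1 the lowest for 14 of the 23 glycolytic members, against 18% and 17% of all tested genes. With limma-trend on log2 CPM the HIF response median was -0.41 after the trend was removed, with 16 of 17 lower in test tumors, and -0.32 before, with 15 of 17 lower, and that fit was likewise chosen after seeing the data.

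**Figure D2:**
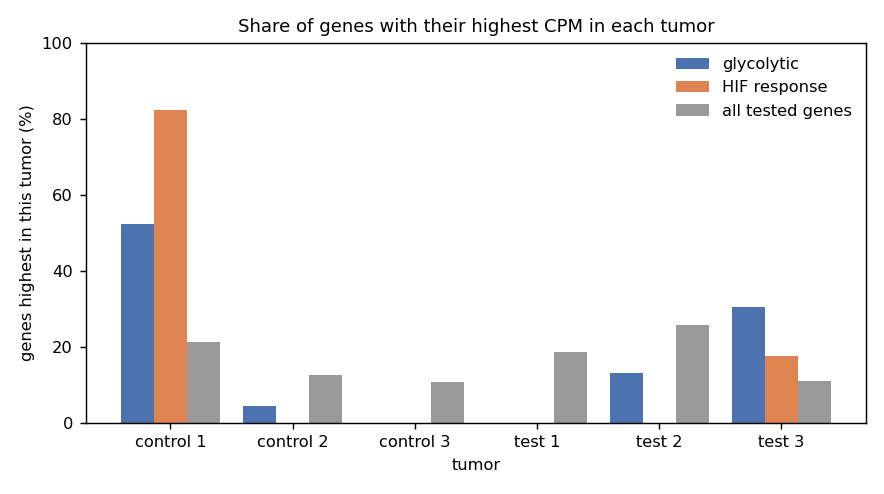
Percent of genes whose highest CPM of the 6 tumors is in the tumor named on the horizontal axis, for glycolytic members (blue), HIF response members (orange) and all 13706 tested genes (gray). Control 1 holds the highest value for 82.4% of the HIF response members and 21.2% of all tested genes, and test 3 for 30.4% of the glycolytic members and 11.1% of all tested genes.

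The members also took unequal shares of each library. The 23 glycolytic members held 1.63%, 1.30% and 1.10% of the expected counts in the control tumors and 0.84%, 1.45% and 1.66% in the test tumors, by replicate number. The 17 members of the HIF response held 0.314%, 0.131% and 0.182% in the control tumors and 0.128%, 0.0925% and 0.206% in the test tumors, in the same order. For both roles the groups overlapped, and the share in test replicate 3 was above that in control replicates 2 and 3.

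The average difference between the groups rested on control replicate 1. Without that tumor 9 of the 17 members of the HIF response were lower in test tumors, with a median log2 fold change of -0.05, and 10 of the 23 glycolytic members were lower, with a median of 0.07. Over all 40 members 19 were then lower and the median was 0.04. Without test replicate 1 the median of the glycolytic members was 0.08 and 11 of 23 were lower. Without test replicate 3 the medians of the HIF response and of the glycolytic members were -0.61 and -0.50. The median over all 40 members was -0.51 without test replicate 3 and -0.43 without control replicate 2. Without control replicate 3 the median of the glycolytic members was -0.31. Without control replicate 2 the median of the HIF response was -0.65, and the groups did not overlap for 10 of the 40 members (25%), against 35.3% of all genes tested in that fit. In the same fit 6 members (15%) had an unadjusted p under 0.05, against 14.3% of all tested genes. Members without overlap numbered 2, 3, 4, 3 and 5 when control replicate 1, control replicate 3 or test replicate 1, 2 or 3 was left out, which is 5%, 7.5%, 10%, 7.5% and 12.5% of the 40, against 15.5%, 16.9%, 23.9%, 22.5% and 22.8% of all tested genes. Those at an unadjusted p under 0.05 numbered 0, 2, 1, 1 and 5 in these fits by edgeR, against 4.65%, 5%, 7.98%, 8.16% and 7.67% of all tested genes. Without control replicate 2, the comparison of 2 control tumors with 3 test tumors called 182 of 14166 genes at an adjusted p of 0.05 in edgeR. Of the 40 members 0 were among them. In log2 CPM over all tested genes, control replicate 2 correlated with test replicates 1, 2 and 3 at 0.916, 0.922 and 0.93. With control replicates 1 and 3 it correlated at 0.867 and 0.902, while control replicates 1 and 3 correlated with each other at 0.945. Over all genes, control replicate 1 was thus not apart from both other control tumors.

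**Figure D3:**
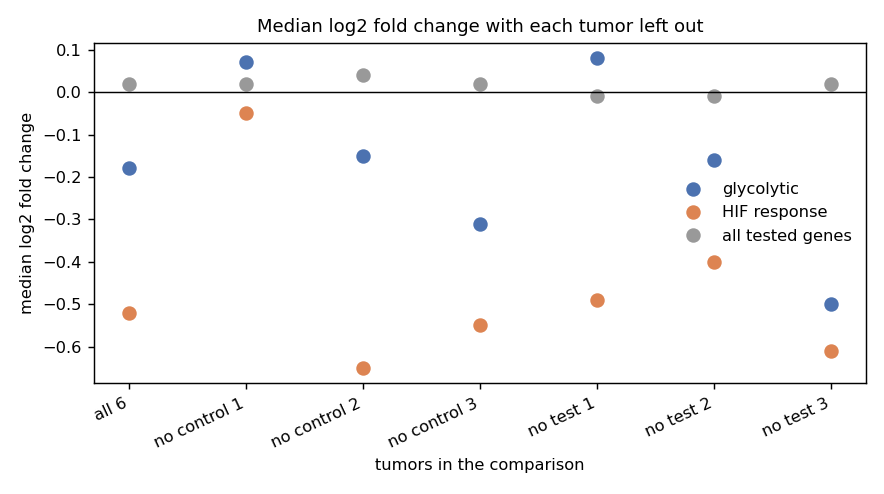
Median log2 fold change, test against control (vertical axis), with all 6 tumors and with each tumor left out in turn, for glycolytic members (blue), HIF response members (orange) and all tested genes (gray). The median of the HIF response is -0.52 with all tumors and -0.05 without control 1.

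Markers of other cells and of growth differed between the same tumors. The 4 granulocyte markers listed in the data summed to 112, 62.8 and 57.2 CPM in the control and 25.4, 69.1 and 60.7 CPM in the test replicates, and none of the 4 was at 0 in every tumor. *Cxcr2*, the most abundant on average, was at 21.5, 41.6 and 20.7 CPM in the control and 12.1, 49.6 and 24.0 CPM in the test tumors, highest in test replicate 2. In control replicate 1 the most abundant were *Csf3r* (39.2 CPM) and *S100a9* (35.0 CPM), each highest of the 6 tumors there. The 8 epithelial markers summed to 2184, 4216 and 2394 CPM in the control and 5522, 5579.9 and 5665 CPM in the test replicates, so every test sum was above every control sum, and 7 of 8 were higher on average in test tumors. *Krt8* (log2 fold change 1.22), *Krt18* (1.01) and *Krt19* (1.82) had groups that did not overlap and an unadjusted p under 0.05 in edgeR, against 12% and 8.41% of all tested genes. The 5 macrophage markers summed to 234, 121 and 307 CPM in the control and 139, 176 and 140.4 CPM in the test replicates, with *Csf1r* the most abundant on average, and 4 of 5 were lower in test tumors. Control replicate 1 thus had the highest granulocyte sum and the lowest epithelial sum of the 6 tumors, while its macrophage sum was below that of control replicate 3. The 5 proliferation markers, led on average by *Mki67*, summed to 477, 994 and 571 CPM in the control and 453, 769.5 and 921 CPM in the test replicates, lowest in test replicate 1 and next lowest in control replicate 1. The 6 endothelial markers, led on average by *Pecam1*, summed to 142, 96.4 and 136 CPM in the control and 110.0, 124 and 147 CPM in the test replicates. The 3 erythrocyte markers listed, led on average by *Hba-a1*, summed to 489.6, 137 and 482 CPM in the control and 340.0, 426 and 328 CPM in the test replicates, lowest in control replicate 2. The 6 fibroblast markers, led on average by *Col1a1*, summed to 967, 2948 and 1961 CPM in the control and 1161, 4971 and 1956 CPM in the test replicates.

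Muscle and fat markers set test replicate 1 apart, the lowest tumor for 13 of the 23 glycolytic members. The 10 skeletal muscle markers, led on average by *Myh4*, summed to 8.68, 239 and 7.88 CPM in the control and 1404, 206 and 129.7 CPM in the test replicates, with 10 of 10 higher on average in test tumors, and *Ckm* was at 0 in control replicate 1. The 7 adipocyte markers, led on average by *Fabp4*, summed to 24.8, 16.6 and 21.5 CPM in the control and 393, 107 and 16.0 CPM in the test replicates, with all 3 that passed the filter higher on average in test tumors, and *Plin1*, *Lep* and *Retn* were at 0 in control replicate 1. The part of all these cells in the members' levels was not tested.

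**Figure D4:**
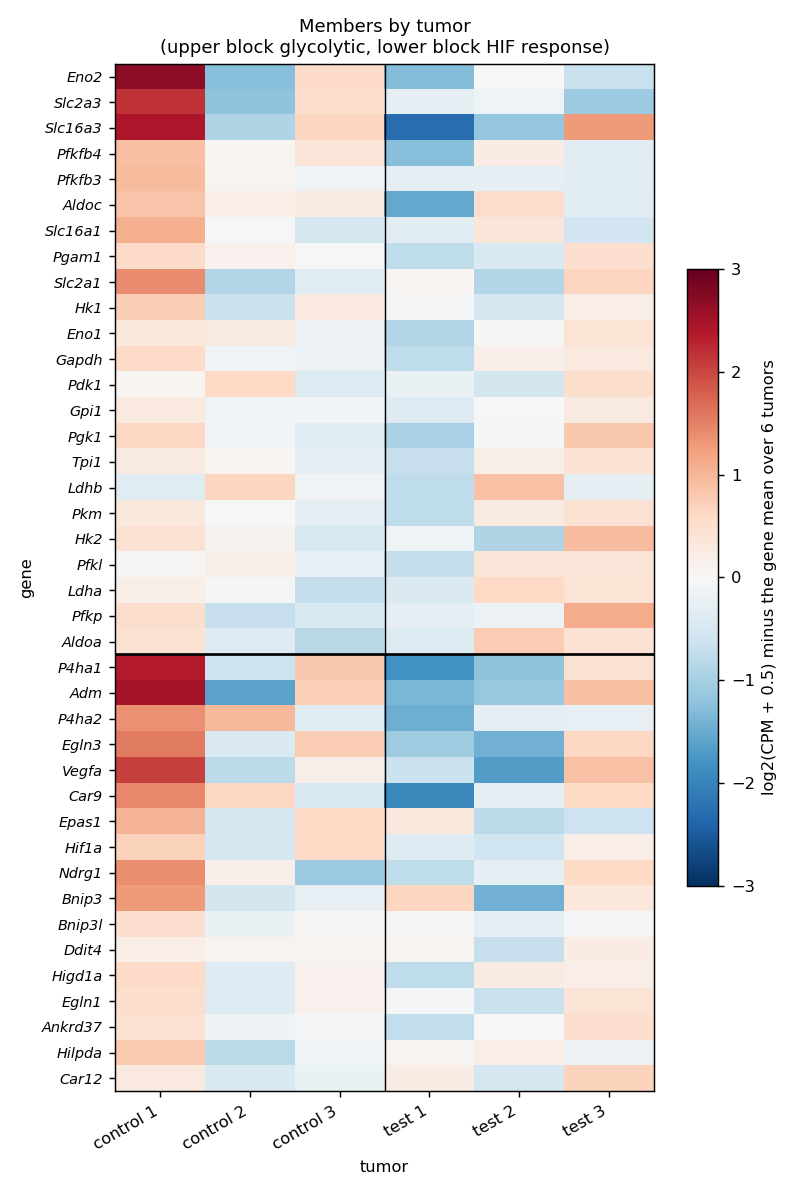
Each cell shows log2(CPM + 0.5) of a member (named at the left) in a tumor (named below) minus that gene's mean over the 6 tumors, red above and blue below the mean, with glycolytic genes in the upper block, HIF response genes in the lower block and a vertical line between control and test tumors. Control 1 is above the mean for every HIF response gene, and test 1 is below the mean for most glycolytic genes.

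Promoter windows were read for the members as a description. Many members were chosen as known HIF targets, so a high share of HIF core letters was built into that choice. The shares cannot show why many members were highest in the same tumor. RefSeq windows on GRCm38.p6, from 250 bases before to 50 bases after a transcription start, were matched for 36 of the 40 members with 48 windows, and *Bnip3l*, *Epas1*, *Ndrg1* and *Slc2a3* had no entry. The letters searched on both strands were ACGTG and GCGTG, the core letters that HIF is known to bind, which differ in the first letter and whose matches can overlap. ACGTG was in 27 of the 48 windows (56.2%), against 19.6% of 32851 windows of all genes, and GCGTG was in 29 of 48 (60.4%), against 32.4%. Among the HIF response genes 12 of 16 windows (75%) held ACGTG, and among the glycolytic genes 15 of 32 (46.9%). The members' windows were richer in G and C, with a median of 63.8% against 52.7% for all windows, and both motifs hold CG. The part of base composition in these shares was not tested. A match is a description of letters and not a bound site. These windows of *P4ha1*, *P4ha2*, *Egln3* and *Slc16a3* are shown as examples with ACGTG among the 8 members with the largest absolute log2 fold changes. They run 5′ to 3′ on the gene's strand, with the matched letters of both motifs on either strand in capitals. *P4ha1* is at chr10:59323046-59323345 on the plus strand, *P4ha2* at chr11:54100674-54100973 on the plus strand, *Egln3* at chr12:54203825-54204124 on the minus strand and *Slc16a3* at chr11:120948817-120949116 on the plus strand.
P4ha1: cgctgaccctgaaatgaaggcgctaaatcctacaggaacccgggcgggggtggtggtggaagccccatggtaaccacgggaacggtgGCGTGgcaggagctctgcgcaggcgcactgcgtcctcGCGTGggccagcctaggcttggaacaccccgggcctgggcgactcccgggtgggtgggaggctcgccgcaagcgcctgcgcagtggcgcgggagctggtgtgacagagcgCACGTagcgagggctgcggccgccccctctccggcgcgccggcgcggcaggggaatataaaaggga
P4ha2: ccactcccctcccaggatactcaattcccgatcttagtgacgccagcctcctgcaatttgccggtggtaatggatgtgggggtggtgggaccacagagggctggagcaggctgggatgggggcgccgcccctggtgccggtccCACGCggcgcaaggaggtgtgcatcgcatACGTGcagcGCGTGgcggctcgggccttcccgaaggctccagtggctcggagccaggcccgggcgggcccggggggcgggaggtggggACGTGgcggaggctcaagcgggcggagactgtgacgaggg
Egln3: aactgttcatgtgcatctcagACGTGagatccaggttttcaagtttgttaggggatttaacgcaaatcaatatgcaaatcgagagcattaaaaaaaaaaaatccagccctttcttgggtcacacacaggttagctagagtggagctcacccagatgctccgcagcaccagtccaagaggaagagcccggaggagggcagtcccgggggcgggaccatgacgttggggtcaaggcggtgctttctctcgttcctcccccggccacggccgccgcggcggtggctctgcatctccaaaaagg
Slc16a3: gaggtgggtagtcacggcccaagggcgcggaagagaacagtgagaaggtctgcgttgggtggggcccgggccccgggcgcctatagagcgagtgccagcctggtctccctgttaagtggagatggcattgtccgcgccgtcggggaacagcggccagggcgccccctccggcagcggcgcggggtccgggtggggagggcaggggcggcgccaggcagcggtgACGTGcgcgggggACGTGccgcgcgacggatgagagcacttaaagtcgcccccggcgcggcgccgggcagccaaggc
The *P4ha2* window held 2 matches of each motif, *P4ha1* 1 of ACGTG and 2 of GCGTG, *Slc16a3* 2 of ACGTG and *Egln3* 1 of ACGTG. The *Eno2* window, of the member with the lowest log2 fold change, held neither. Also among these 8 members, *Adm* held 2 matches of GCGTG and none of ACGTG, and *Slc2a3* had no entry. *Vegfa* had a window with 1 match of each motif and another window with neither.

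Collagen prolyl 4-hydroxylases included the HIF response gene with the lowest log2 fold change, *P4ha1*, and the member with the smallest p, *P4ha2*. *P4ha1*, the catalytic alpha subunit 1 of the enzyme that hydroxylates proline in new collagen chains, was at 194, 23.9 and 65.0 CPM in the 3 control tumors and 10.03, 15.8 and 50.3 CPM in the 3 test tumors, by replicate number. Control replicate 1 was the highest and test replicate 3 was above control replicate 2, so the groups overlapped. *P4ha1* had a log2 fold change of -1.89 (SE 0.85), and it was -0.81 without control replicate 1 and -2.85 without test replicate 3. *P4ha2*, the alpha subunit 2 of the same enzyme, was at 33.6, 25.4 and 9.80 CPM in control replicates 1, 2 and 3 and 4.27, 10.5 and 10.6 CPM in test replicates 1, 2 and 3. All 3 test tumors were below control replicates 1 and 2, but control replicate 3 lay among the test tumors. *P4ha2* had a log2 fold change of -1.44 (SE 0.54), and it stayed below -1 when any tumor was left out, between -1.80 and -1.06. In those fits the unadjusted p of *P4ha2* in edgeR was under 0.05 only without control replicate 3 or without test replicate 3.

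The members included genes of oxygen sensing. *Egln3*, a prolyl hydroxylase that marks HIF alpha subunits and is itself a HIF target, was at 806, 203 and 467 CPM in the 3 control tumors and 129.6, 101 and 423 CPM in the 3 test tumors, by replicate number. Test replicates 1 and 2 were below every control tumor, and test replicate 3 was above control replicate 2. *Egln3* had a log2 fold change of -1.18 (SE 0.67), and it was -0.62 without control replicate 1 and -2.08 without test replicate 3. The main sensor *Egln1* had a log2 fold change of -0.16. The oxygen-labile subunits were at -0.58 for *Hif1a* and -0.78 for *Epas1*, which encodes HIF-2 alpha. In FPKM, a scale per length, *Hif1a* (43.8 on average over the 6 tumors) was above *Epas1* (16.3), and *Egln3* (129.3) was above *Egln1* (16.4).

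The genes of secreted products were highest in control replicate 1. *Vegfa*, which encodes the main growth factor for blood vessels, was at 289, 40.2 and 78.8 CPM in control replicates 1, 2 and 3 and 44.2, 21.5 and 128 CPM in test replicates 1, 2 and 3. Control replicate 1 stood at the top, and test replicate 3 was above the other 2 control tumors. *Vegfa* had a log2 fold change of -1.08 (SE 0.84), and it was 0.11 without control replicate 1, -0.65 without test replicate 2 and -2.04 without test replicate 3. *Adm*, which encodes the vessel-dilating peptide adrenomedullin, was at 52.9, 2.60 and 14.9 CPM in the 3 control tumors and 3.11, 3.78 and 17.1 CPM in the 3 test tumors, by replicate number. The groups overlapped, since control replicate 2 was the lowest of the 6 tumors. *Adm* had a log2 fold change of -1.55 (SE 1.05), and it was -0.13 without control replicate 1, -2.74 without test replicate 3 and -1.02 with limma-trend on log2(FPKM + 1). *Car9* and *Car12*, carbonic anhydrases of the cell surface that help to balance acid, had log2 fold changes of -0.93 and 0.29, and *Car9* was lowest in test replicate 1.

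The remaining members of the HIF response had log2 fold changes between -0.52 and -0.05. They were *Ndrg1*, a stress gene (-0.52), *Bnip3* (-0.31) and *Bnip3l* (-0.26), which mark mitochondria for removal, *Ddit4*, an inhibitor of mTOR signaling (-0.20), *Higd1a*, a mitochondrial protein (-0.20), *Ankrd37* (-0.12) and *Hilpda*, a lipid droplet protein (-0.05). *Ankrd37* had as few as 11 counts in a tumor. *Ddit4* was at 70.0 to 76.4 CPM in the control tumors and, by replicate number, at 69.8, 40.9 and 77.3 CPM for the test tumors, so test replicate 2 alone was far below the control tumors and test replicate 3 was the highest of the 6. *Bnip3* was lowest in test replicate 2.

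**Figure D5:**
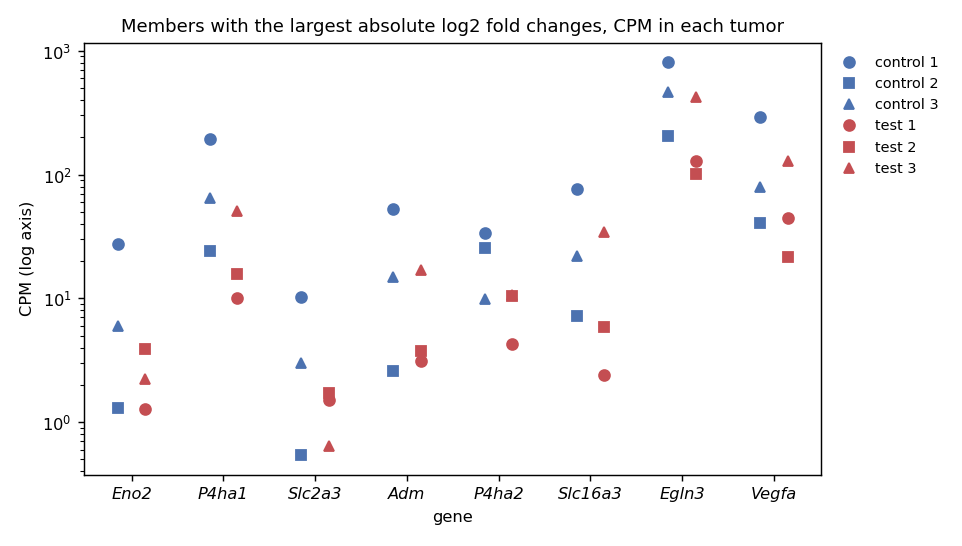
CPM on a log axis in each control (blue) and test (red) tumor for the 8 members with the largest absolute log2 fold changes, with the replicate number given by the marker. Control 1 is the highest point for every gene shown, and the points of the 2 groups overlap for each.

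Among the glycolytic members the largest differences were in genes of low level. *Eno2*, the neuronal form of enolase, was at 27.7, 1.30 and 5.97 CPM in control replicates 1, 2 and 3 and 1.27, 3.91 and 2.23 CPM in test replicates 1, 2 and 3. Control replicate 1 was the highest and control replicate 2 lay within the test tumors. *Eno2* had a log2 fold change of -2.23 (SE 1.02), and it was -0.56 without control replicate 1, -1.01 and -1.37 with limma-trend on log2 FPKM (pseudocounts of 1 and 0.1), and -1.37 and -1.34 with limma-trend on log2 CPM before and after removal of the gene length trend. *Slc2a3*, the glucose carrier GLUT3, was at 10.3, 0.541 and 2.98 CPM in the 3 control tumors and 1.499, 1.71 and 0.637 CPM in the 3 test tumors, by replicate number. Control replicate 2, with 5 counts, was the lowest of the 6 tumors. *Slc2a3* had a log2 fold change of -1.84 (SE 0.98), and it was -0.47 without control replicate 1, and -1.06 and -0.90 with limma-trend on log2 CPM before and after removal of the gene length trend. In FPKM *Slc2a3* averaged 0.712 and *Eno2* 2.54, against 58.6 for the main glucose carrier gene *Slc2a1* and 797.6 for *Eno1*.

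Glucose uptake and its first step showed smaller differences. The log2 fold changes were -0.35 for *Slc2a1*, -0.33 for *Hk1* and 0.08 for *Hk2*, the hexokinases that trap glucose in the cell. *Slc2a1* had its highest CPM in control replicate 1 (347.8), followed by test replicate 3 (202.6). In FPKM *Hk1* (96.8 on average) was above *Hk2* (7.12).

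*Pfkfb3* was the member whose groups did not overlap. It makes the activator of phosphofructokinase, fructose 2,6-bisphosphate. It was at 95.2, 52.2 and 45.8 CPM in control replicates 1, 2 and 3 and 39.8, 39.9 and 39.1 CPM in test replicates 1, 2 and 3. The test tumors lay within 1 CPM of each other, below the lowest control tumor, and control replicate 1 was the highest. *Pfkfb3* had a log2 fold change of -0.70 (SE 0.32). Without control replicate 1 the log2 fold change was -0.31. With limma-trend on log2 CPM it was -0.62 before and -0.42 after removal of the gene length trend, and after the removal the groups overlapped. The gene lies on chromosome 2 from 11471430 to 11554071 in GRCm38.p6. The related *Pfkfb4* had a log2 fold change of -0.92 and its lowest level in test replicate 1, with 13 counts. The phosphofructokinases *Pfkl* and *Pfkp* were at 0.09 and 0.48, with the highest CPM of both in test replicate 3.

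The upper enzymes held aldolases of opposite average direction. *Gpi1*, which turns glucose 6-phosphate into fructose 6-phosphate, was at 827, 628 and 634 CPM in the 3 control tumors and 517, 663 and 812 CPM in the 3 test tumors, by replicate number. The groups overlapped, with the lowest level in test replicate 1. *Gpi1* had a log2 fold change of -0.07 (SE 0.30), and it was 0.07 without control replicate 1 and 0.08 without test replicate 1. *Aldoa*, the main aldolase, was at 1857, 1032 and 752 CPM in control replicates 1, 2 and 3 and 1008, 2284 and 1816 CPM in test replicates 1, 2 and 3. Test replicate 2 was the highest tumor and control replicate 3 the lowest, with control replicate 1 among the test tumors. *Aldoa* had a log2 fold change of 0.49 (SE 0.46), and it was 0.93 without control replicate 1, 0.23 without control replicate 3, 0.76 without test replicate 1 and 0.22 without test replicate 2. *Aldoc*, another aldolase, was at 649, 414 and 430.0 CPM in the 3 control tumors and 124, 521 and 288 CPM in the 3 test tumors, by replicate number. Test replicates 1 and 3 were below every control tumor, and test replicate 2 was above control replicates 2 and 3. *Aldoc* had a log2 fold change of -0.68 (SE 0.50), and it was -0.45 without control replicate 1, -0.30 without test replicate 1 and -1.26 without test replicate 2.

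The lower enzymes included the most abundant member. *Gapdh*, which oxidizes glyceraldehyde 3-phosphate, had the highest mean FPKM of the 40 members (2679.7), followed by *Aldoa* (949.2), *Pkm* (821.1), *Eno1* (797.6) and *Ldha* (704.6). *Gapdh* was at 4801, 3015 and 2877 CPM in control replicates 1, 2 and 3 and 1892, 3593 and 3982 CPM in test replicates 1, 2 and 3. Test replicate 1 was the lowest tumor, and the other 2 test tumors were above control replicates 2 and 3. *Gapdh* had a log2 fold change of -0.18 (SE 0.41), and without control replicate 1 or without test replicate 1 it was 0.09. *Tpi1*, triosephosphate isomerase, was at 596, 516 and 410.4 CPM in the 3 control tumors and 303, 552 and 669.8 CPM in the 3 test tumors, by replicate number. Test replicate 1 was the lowest and test replicate 3 the highest. *Tpi1* had a log2 fold change of 0.00 (SE 0.36). *Eno1*, the main enolase, was at 1753, 1704 and 1262 CPM in control replicates 1, 2 and 3 and 760.0, 1440.3 and 1883 CPM in test replicates 1, 2 and 3. Test replicate 1 was the lowest and test replicate 3 the highest. *Eno1* had a log2 fold change of -0.21 (SE 0.40), and without test replicate 1 it was 0.08. *Pkm*, which makes pyruvate, was at 2426, 1969 and 1589.5 CPM in the 3 control tumors and 1149, 2339.5 and 2657 CPM in the 3 test tumors, by replicate number. Test replicate 1 was the lowest and test replicate 3 the highest here too, so the test group held both ends. *Pkm* had a log2 fold change of 0.04 (SE 0.40). *Pgk1* and *Pgam1*, the enzymes between *Gapdh* and enolase, had log2 fold changes of -0.02 and -0.38. Without control replicate 3, test replicate 2 or test replicate 3 the log2 fold change of *Tpi1* was -0.13, -0.05 and -0.23, and that of *Pkm* -0.11, -0.06 and -0.18.

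*Gapdh*, *Eno1*, *Pgk1*, *Pgam1*, *Tpi1*, *Ldha*, *Aldoa* and *Pkm* have close copies elsewhere in the mouse genome, and how the authors' counting split reads among such copies was not given in the sources used here, so their counts are uncertain. The copy *Eno1b* was itself listed at 776.7, 1042 and 647.8 CPM for control tumors and 341.8, 548.8 and 1126 CPM for test tumors, by replicate number, with a log2 fold change of -0.29.

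The genes that decide the fate of pyruvate split as well. *Ldha*, which makes lactate, was at 1268, 1102 and 679.6 CPM in control replicates 1, 2 and 3 and 834, 1694 and 1492 CPM in test replicates 1, 2 and 3. Control replicate 3 was the lowest and test replicates 2 and 3 were the highest, with test replicate 1 below control replicates 1 and 2. *Ldha* had a log2 fold change of 0.40 (SE 0.39), and it was 0.17 without control replicate 3, 0.65 without test replicate 1 and 0.20 without test replicate 2. *Slc16a3*, the lactate exporter MCT4 and a HIF target, was at 76.5, 7.14 and 22.0 CPM in the 3 control tumors and 2.42, 5.86 and 34.3 CPM in the 3 test tumors, by replicate number. Control replicate 1 was the highest and test replicate 1 the lowest, and test replicate 3 was above control replicates 2 and 3. *Slc16a3* had a log2 fold change of -1.31 (SE 1.08), and it was -0.04 without control replicate 1, -0.80 without test replicate 1 and -3.07 without test replicate 3. *Slc16a1*, the carrier MCT1, *Ldhb*, the other lactate dehydrogenase subunit, and *Pdk1*, the kinase that inhibits pyruvate dehydrogenase in mitochondria, had log2 fold changes of -0.45, 0.00 and -0.15.

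Ratios between related members were compared within each tumor, since a ratio of levels without a pseudocount does not depend on the scaling between libraries. The log2 ratio of FPKM, with a pseudocount of 0.1, was taken for 13 pairs. With the pseudocount, ratios that hold a gene of low level depend in part on that scaling. *Aldoa* over *Aldoc* was 1.68, 1.48 and 0.97 in the control tumors and 3.19, 2.30 and 2.82 in the test tumors, by replicate number. Every test tumor was above every control tumor, a difference of 1.39 (exact permutation test, two-sided, p = 0.1, the smallest p that 3 tumors against 3 allow; adjusted p = 0.867 over the 13 ratios). The adjusted p of every other ratio was 0.867 or 0.9, and no other ratio had groups that did not overlap. *Car9* over *Car12* averaged -1.05 ± 0.80 in control and -2.37 ± 1.33 in test tumors (SD, n = 3 each, difference -1.32, exact permutation p = 0.3). *Egln3* over *Egln1* averaged 3.21 ± 0.54 in control and 2.13 ± 0.66 in test tumors (SD, n = 3 each, difference -1.08, exact permutation p = 0.2). *Slc16a3* over *Slc16a1* averaged -0.30 ± 1.30 and -1.42 ± 2.11 (SD, n = 3 each, difference -1.12, exact permutation p = 0.5). *Eno1* over *Eno2* averaged 8.46 ± 2.08 and 9.53 ± 0.57 (SD, n = 3 each, difference 1.07, exact permutation p = 0.5), and *Slc2a1* over *Slc2a3* 6.02 ± 0.74 and 6.89 ± 1.30 (SD, n = 3 each, difference 0.87, exact permutation p = 0.5). With a pseudocount of 1 the difference was 0.71 for *Eno1* over *Eno2*, 0.40 for *Slc2a1* over *Slc2a3* and -0.02 for *Pfkfb3* over *Pfkfb4*. With 1 tumor left out the difference of *Eno1* over *Eno2* ran from 0.10 (without control replicate 1) to 2.17 (without control replicate 2). That of *Slc16a3* over *Slc16a1* ran from -2.33 (without test replicate 3) to -0.38 (without test replicate 1), and it was -1.86 without control replicate 2, -0.69 without control replicate 1 and -0.64 without test replicate 2. *Car9* over *Car12* ran from -1.78 (without control replicate 3 or test replicate 2) to -0.55 (without test replicate 1). *Slc2a1* over *Slc2a3* ran from 0.19 (without test replicate 3) to 1.48 (without test replicate 2), *Egln3* over *Egln1* from -1.46 to -0.83 and *Aldoa* over *Aldoc* from 1.18 to 1.63.

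The differences of the other 7 ratios lay between -0.37 for *P4ha1* over *P4ha2* and 0.49 for *Ldha* over *Ldhb*, with *Pfkp* over *Pfkl* at 0.40, *Pfkfb3* over *Pfkfb4* at 0.34, *Hif1a* over *Epas1* at 0.21, *Hk2* over *Hk1* at 0.18 and *Bnip3* over *Bnip3l* at -0.09. Leaving out 1 tumor turned the sign of 5 of these, and moved *Pfkp* over *Pfkl* to between 0.06 and 0.78 and *Ldha* over *Ldhb* to between 0.27 and 0.89. *P4ha1* over *P4ha2* was at 0.03 without control replicate 1, 0.12 without control replicate 3 and 0.00 without test replicate 2, and *Bnip3* over *Bnip3l* at 0.28 without control replicate 1 and 0.48 without test replicate 2. *Hk2* over *Hk1* was at -0.15 without control replicate 3 and -0.14 without test replicate 3, *Hif1a* over *Epas1* at -0.15 without test replicate 3, and *Pfkfb3* over *Pfkfb4* at -0.09 without test replicate 1.

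Other genes of the same pathways were read from lists. Of 36 other HIF targets tested 24 were lower in test tumors, with a median log2 fold change of -0.24 and 4 at an unadjusted p under 0.05 in edgeR, all lower, against 5.26% of all tested genes in that direction. These were *Plod1*, *Hmox1* (-1.79), *Angptl4* (-1.31) and *Gbe1* (-1.10), of which *Hmox1* and *Angptl4* are named after their values were seen. *Plod1*, a lysyl hydroxylase of collagen, was at 757, 109.8 and 534 CPM in control replicates 1, 2 and 3 and 38.7, 59.3 and 59.0 CPM in test replicates 1, 2 and 3, a log2 fold change of -3.16. The groups did not overlap for 3 of the 36, *Plod1* and *Gbe1*, lower, and *Lox*, higher (0.60), against 12% of all tested genes. *Nos2*, the inducible nitric oxide synthase, had the next lowest log2 fold change (-1.81), and *Tek* (0.80) and *Zfp395* (0.78) the highest. Control replicate 1 had the highest median of these 36 genes, 0.57 above the gene means on the log2 CPM scale, and test replicate 2 the lowest, at -0.43. Of 14 regulators of HIF tested 5 were lower, with a median of 0.07 and 0 at an unadjusted p under 0.05 in edgeR. Their log2 fold changes ran from -0.98 for *Arnt2* and -0.47 for *Ep300* to 0.41 for *Siah1a* and 0.50 for *Egln2*.

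Of 17 other genes of glycolysis and glycogen tested 9 were lower, with a median log2 fold change of -0.10, and 5 had an unadjusted p under 0.05 in edgeR, *Gbe1* and *Pygb* lower and *Pygm*, *Eno3* and *Ldhd* (0.86, named after its value was seen) higher, against 8.41% of all tested genes. *Gbe1*, the glycogen branching enzyme, was at 74.3, 36.5 and 39.9 CPM in the 3 control tumors and 31.0, 20.0 and 19.4 CPM in the 3 test tumors, by replicate number, a log2 fold change of -1.10. *Pygb*, the brain form of glycogen phosphorylase, was at 163, 246 and 213 CPM in control replicates 1, 2 and 3 and 143, 129 and 129 CPM in test replicates 1, 2 and 3, a log2 fold change of -0.64. The groups did not overlap for 4 of the 17, *Gbe1*, *Pygb* and *Pfkm* (-0.46) lower and *Ldhd* higher, against 12% of all tested genes, and *Pfkm* is named after its value was seen. *Pygm*, the muscle glycogen phosphorylase, was at 0.463, 5.30 and 0.533 CPM in the 3 control tumors and 53.3, 6.35 and 3.93 CPM in the 3 test tumors, by replicate number, a log2 fold change of 3.32, and *Eno3*, the muscle enolase, had a log2 fold change of 2.12 and its highest CPM, 22.0, in test replicate 1. The skeletal muscle markers were highest in that tumor too, and the part of muscle in the values of *Pygm* and *Eno3* was not tested.

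Of 17 genes of pyruvate entry and gluconeogenesis tested 7 were lower, with a median log2 fold change of 0.02 and 0 at an unadjusted p under 0.05 in edgeR. The highest were *Pck1* (2.52) and *Pdk4* (2.38), both highest in test replicate 1 with 28.6 and 45.8 CPM, and the lowest *Fbp2* (-1.25) and *Fbp1* (-0.98). The groups did not overlap for 3 of the 17, *Pdk3* (-0.38) lower and *Dld* (0.38) and *Pdp2* (0.62) higher, against 12% of all tested genes, and these 3 are named after their values were seen. The adipocyte markers were highest in that tumor too, and the part of adipocytes in the values of *Pck1* and *Pdk4* was not tested. Of 12 genes of the pentose phosphate and serine branches 6 were lower, with a median of 0.05 and 0 at an unadjusted p under 0.05 in edgeR. They ran from -0.45 for *Phgdh* and -0.23 for *Shmt1* to 0.54 for both *Pgls* and *Taldo1*.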

How the data were processed

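RNA from 6 mouse breast tumors, 3 test and 3 control, was sequenced, and each tumor has a table of genes. The deposited values of each gene are its length, an expected count (the authors' estimate of its reads, not always whole) and FPKM. The authors aligned RNA reads to mm10 with Bowtie. Their notes also name RSEM, and BWA, the aligner of the study's ChIP sequencing. The study gives a version of its analysis pipeline; the step RSEM did, the versions of Bowtie and RSEM and the annotation release are not given in the sources used here. Of 18460 genes listed in any tumor, 18400 were matched to symbols by gene ID, 13 by transcript and 47 not at all, and a gene missing from a tumor's table was set to 0. Expected counts, between 8373390 and 9449565 per tumor in sum, were rounded. Genes with low counts were removed with filterByExpr, which left 13706, and edgeR 4.0.16 in R 4.3.3 scaled the libraries (TMM) and ran its quasi-likelihood test with Benjamini-Hochberg adjustment over all tested genes at a threshold of 0.05. Ratios of related genes were compared by exact permutation tests, two-sided, in which 3 tumors against 3 allow no p below 0.1. The fits by edgeR, DESeq2 and limma were tested on simulated counts with larger changes than most members showed. The simulation covered no other step.

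Values in every tumor are given for members with an unadjusted p under 0.05, with groups that do not overlap, or among the 8 largest absolute log2 fold changes or the 8 highest mean FPKM. From the other lists the 2 highest and 2 lowest log2 fold changes are named. The members and lists were chosen with earlier results of these data known. Alternatives were DESeq2 1.42.0, RLE and upper-quartile scaling, no filter, a minimum of 10 counts per tumor, limma-trend (limma 3.58.1) on log2 FPKM with a pseudocount of 1 or 0.1, a replicate block and each tumor left out in turn. Removing each tumor's trend with gene length by loess, fitted with limma-trend on log2 CPM, and the same fit without the removal were chosen after seeing the data, since test replicate 2 stood apart in its levels by gene length. Tables were handled in Python 3.11.15.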

Additional observations from a re-analysis of the deposited data

How the results depend on the processing

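At an adjusted p of 0.05, DESeq2 called 313 genes, limma-trend on log2(FPKM + 1) called 1 and the fits that left out 1 tumor called 0 to 182, against 0 in edgeR, where 1153 genes had an unadjusted p under 0.05. No setting called a member. Members with an unadjusted p under 0.05 numbered 3 with DESeq2 (all tested genes 10.1%), 3 without a filter on low counts (8.04%) and 0 to 6 with 1 tumor left out (4.65% to 14.3%). Members whose groups do not overlap numbered 0 with limma-trend on log2 CPM after removal of the gene length trend (all tested genes 12.1%) and 1 before it (12%), alternatives chosen after seeing the data, and 2 to 10 with 1 tumor left out (15.5% to 35.3%). With 1 tumor left out, 19 to 36 of 40 members, 10 to 20 of 23 glycolytic and 9 to 16 of 17 HIF response members were lower in test tumors.

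The log2 fold change of *Tpi1* was -0.01 without a filter, -0.07 with limma-trend on log2 FPKM at either pseudocount, -0.05 with a replicate block, -0.06 and -0.18 with limma-trend on log2 CPM before and after removal of the length trend and -0.23 to 0.27 with 1 tumor left out. That of *Pkm* was -0.04 with limma-trend on log2 FPKM at either pseudocount, -0.02 with a replicate block, -0.03 and -0.02 with limma-trend on log2 CPM before and after that removal and -0.18 to 0.32 with 1 tumor left out. With 1 tumor left out it ran from -0.23 to 0.08 for *Gpi1* (-0.02 with upper-quartile scaling; with limma-trend on log2 CPM, -0.08 before and -0.02 after the removal), -0.36 to 0.09 for *Gapdh* (-0.11 with upper-quartile scaling; -0.21 before and -0.39 after), -0.50 to 0.08 for *Eno1* (-0.29 before and -0.36 after) and -2.04 to 0.11 for *Vegfa*. The difference in log2 ratio of *Pfkfb3* over *Pfkfb4* was -0.02 with a pseudocount of 1 and -0.09 to 0.68 with 1 tumor left out, where *Hk2* over *Hk1* ran from -0.15 to 0.61, *Hif1a* over *Epas1* from -0.15 to 0.62, *P4ha1* over *P4ha2* from -1.27 to 0.12 and *Bnip3* over *Bnip3l* from -0.46 to 0.48. The cause was not tested. Under the settings that kept all tumors, 156 of the values of named members kept their direction and 11 did not, and with 1 tumor left out 90 did and 12 did not; for the ratios these numbers were 25 and 1, and 69 and 9.

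With a replicate block, which pairs tumors by number, 34 members were lower with a median of -0.25, the HIF response median was -0.32, *Eno2* was at -1.44 and *Adm* at -0.94, 0 genes were called and 1 member, *Epas1*, had an unadjusted p under 0.05. The labels do not say that the numbers pair the tumors. Correlations between tumors of the same number, after the group means were removed, were -0.03, 0.11 and -0.14. Those between tumors of different numbers ran from -0.153 to 0.209. Low counts limit *Slc2a3*, *Eno2* and *Ankrd37*, which had as few as 5, 11 and 11 counts in a tumor.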
